A study of Danio rerio with 6 samples.

Results

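Patterning homeobox genes encode transcription factors that divide the early nervous system, the eye and parts of the mesoderm into regions and later fix the identity of single neuron classes. The genes described here belong to 11 families, which are LIM-homeobox (lhx), Islet (isl), paired box (pax), sine oculis (such as six3 and six6), Iroquois (irx), POU (pou), NK (nkx), BarH-like (barhl), gastrulation brain homeobox (gbx), empty spiracles (emx) and muscle segment homeobox (msx). They were taken by symbol, as every listed gene whose name starts with a family prefix and whose counts over the 6 libraries summed to at least 10. That rule took 95 of the 31452 listed genes. It left out 1 nkx2 gene, 2 genes for proteins that bind Pax factors, and 4 genes of the families below the count minimum (isl1l, lhx8b, nkx2.9 and pou1f1). The rule itself used names and total counts and not the difference between the groups. The families were, however, chosen with earlier results of these data known.

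The libraries came from whole zebrafish embryos 3 days after fertilization, in pools of 15. In 3 pools the embryos expressed GFP-EWSR1-ERG, the fusion of EWSR1 with the ETS factor ERG known from Ewing sarcoma, from the 14xUAS transgene, switched on in neurons by the Gal4-VP16 enhancer trap line s1101t in a cross that also carries UAS:Kaede s1999t. The other 3 pools were wild-type siblings that did not express the fusion, and the labels do not say which of the driver and reporter alleles these siblings carried. All values are whole-embryo levels, so fewer cells of a type and less RNA per cell cannot be told apart.

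Total counts were 6474430, 5611197 and 13338802 in the EWSR1-ERG pools and 5672149, 5154500 and 4771843 in the wild-type pools. The deepest library, EWSR1-ERG replicate 3, was also the only library from sequencing lane 1, so depth and lane cannot be told apart in it. Levels are given as CPM, the counts of a gene scaled to the library total. The floor for a gene listed at 0, which is 3 counts, corresponded to 0.230 to 0.678 CPM and covers counting error only. The 95 genes together took 0.117% ± 0.00942 of all counts in EWSR1-ERG pools and 0.131% ± 0.0129 in wild-type pools (SD, n = 3 each; two-sided exact permutation p = 0.3, where 0.1 is the smallest p that 3 against 3 pools allow). Mitochondrially encoded genes took 2.82% ± 0.175 and 4.08% ± 0.243 of the counts (exact p = 0.1), and the part of this difference in the results was not tested.

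Homeodomain proteins bind short, AT-rich DNA sites, and the families differ in a second domain or in partners: LIM domains that recruit Ldb cofactors, a sine oculis domain that recruits Eya proteins, a paired box, or a POU-specific domain. In vertebrates Six3, Six6, Pax6 and Lhx2 act in the eye field and retina, Islet, Lhx and Brn3 (pou4f) factors in motor, sensory and retinal neurons, Nkx2 and Nkx6 factors in the ventral neural tube, Gbx and Pax2 factors around the midbrain-hindbrain boundary, and Msx factors in the dorsal neural tube, neural crest and fins. Most of these genes are also used outside the nervous system, for instance isl1 in the heart and pax6 and nkx6.1 in pancreatic islets.

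In EWSR1-ERG embryos 6 of the 78 tested patterning genes fell and 1 rose. The genes that fell were six7, six3a, six6b, isl1, nkx6.2 and irx1b, and the gene that rose was msxd. A gene was called when its adjusted p was under 0.05 after Benjamini-Hochberg adjustment of edgeR quasi-likelihood p-values over the 17557 genes with enough counts to test. The share of members called lower was 7.69%, beside 9.87% of all tested genes, and the share called higher was 1.28%, beside 7.46% of all tested genes. In both directions together 8.97% of members were called, beside 17.3% of all tested genes and 15.6% of the 6937 genes whose mean level lay between 5.01 and 21.1 CPM, the quartiles of the members.

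The differences were small. The tested members ran from a log2 fold change of -0.94 to 0.80, EWSR1-ERG over wild type, with quartiles of -0.37 and 0.02. None of them passed a 2-fold difference, beside 1265 (7.21%) of all tested genes. The log2 fold change was negative in 57 and positive in 21 of the 78 members (73.1% negative, beside 49.4% of all tested genes), and its median was -0.19, beside 0.00 over all tested genes. Members and all tested genes were measured with a like precision, with a median standard error (SE) of 0.191 and 0.182 on the log2 scale. Of the 71 members that were not called, 62 had a fold change whose interval of ± 2 SE stayed within 2-fold. The interval reached 2-fold for lhx1b, lhx8a, pax1b, pax6b, irx4a, irx7, pou4f3, nkx2.1b and emx3.

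Counted by pools rather than by the test, 18 of the 78 tested members lay lower in all 3 EWSR1-ERG pools than in any wild-type pool. In the other direction 5 of the 78 lay higher. Over all tested genes 18.0% lay lower in this way and 17.1% higher.

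**Figure D1:**
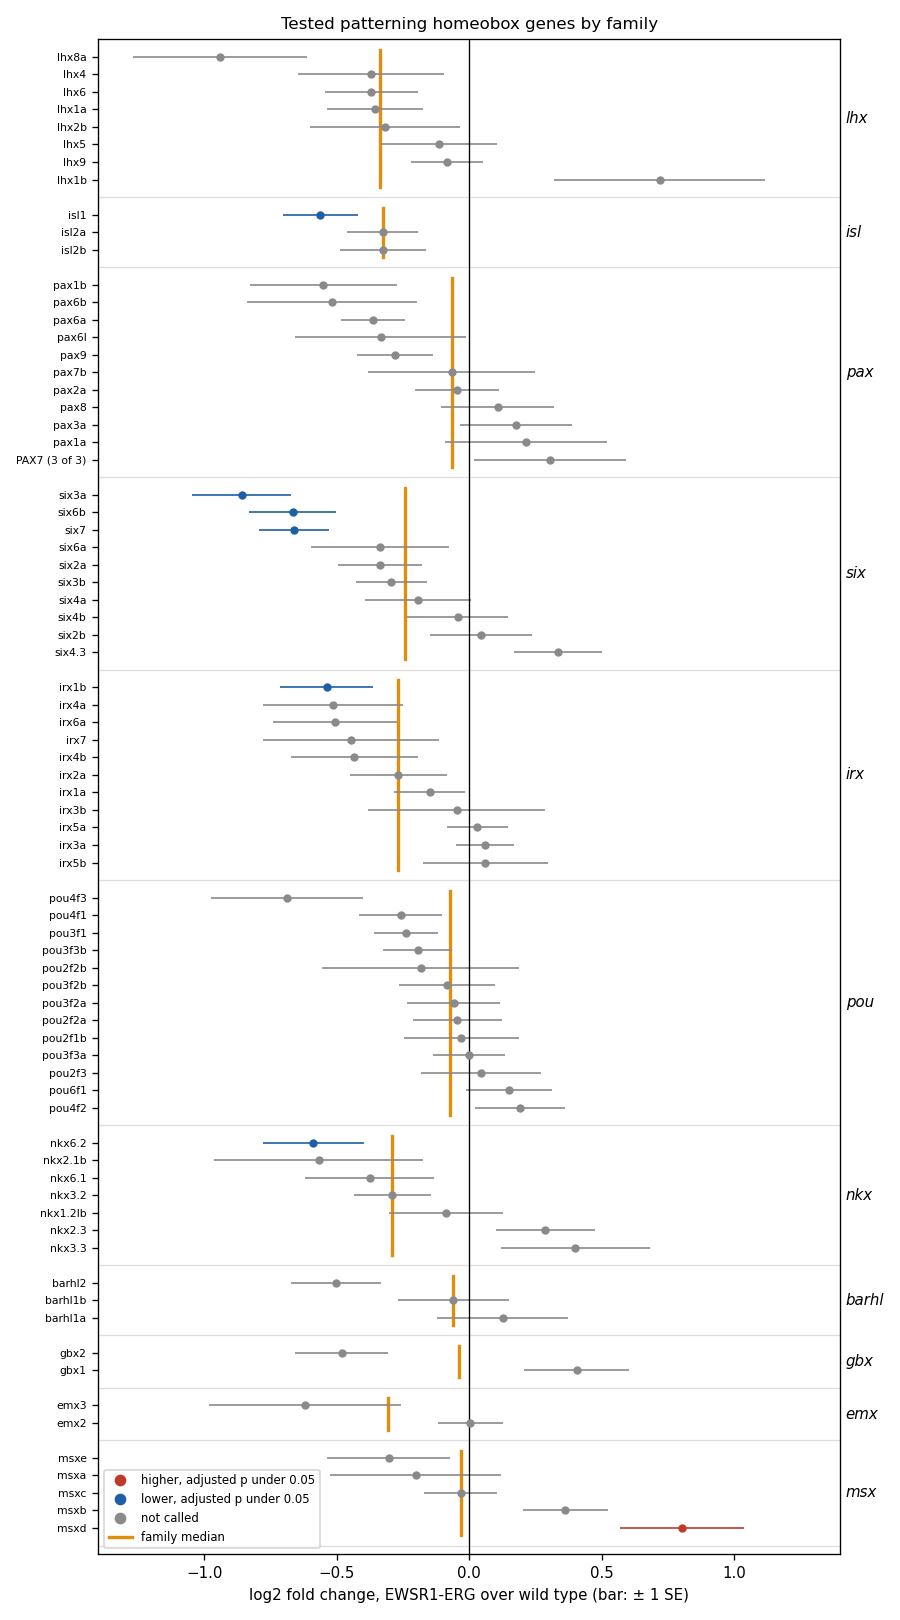
Log2 fold change, EWSR1-ERG over wild type, of the tested members reported by name, grouped by family and sorted within it; points are the fitted values, bars ± 1 SE, and vertical lines the family medians. The values lie between -0.94 and 0.80, and the 6 genes called lower and the 1 called higher are coloured.

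By family, the sine oculis genes had the most calls, with 3 of 12 tested genes lower. The isl, irx and nkx families had 1 gene called lower each, of 3, 11 and 7 tested, and msx had 1 of 5 called higher. No gene was called in lhx (8 tested), pax (11), pou (14), barhl (3), gbx (2) or emx (2) by edgeR, and none in these families by DESeq2 or limma-voom either. At an unadjusted edgeR p under 0.05 there were 1 gene each in lhx, pax, pou, barhl and gbx and 0 in emx. Over all tested genes 9.87% were called lower and 7.46% higher. Differences between families in these counts were not tested.

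With all 6 libraries the family medians were negative in all 11 families and small. Without EWSR1-ERG replicate 1 the median was positive in pax (0.0746), barhl (0.0379) and gbx (0.0322). It was also positive in gbx without wild-type replicate 2 (0.0262), and in msx without EWSR1-ERG replicate 2 (0.00212) or wild-type replicate 3 (0.122). With all libraries the medians were -0.34 in lhx, -0.33 in isl, -0.31 in emx, -0.29 in nkx, -0.27 in irx and -0.24 in the sine oculis genes. They lay nearer to 0 in pax (-0.07), pou (-0.07), barhl (-0.06), gbx (-0.04) and msx (-0.03). In emx and gbx only 2 genes each were tested, and the median is the midpoint of unlike values. These were 0.00 in emx2 and -0.62 in emx3, and 0.41 in gbx1 and -0.48 in gbx2. The libraries of a group were not alike in this measure. The median member lay at -0.31, -0.18 and -0.09 in EWSR1-ERG replicates 1, 2 and 3, and at 0.04, 0.04 and -0.08 in wild-type replicates 1, 2 and 3, as log2 CPM relative to the wild-type mean. Of the pairs of libraries from different groups, EWSR1-ERG replicate 3 and wild-type replicate 3 therefore differed least in this median over all members. This did not hold in every family. In emx, for instance, the medians of these libraries were -0.46 and 0.13. EWSR1-ERG replicate 1 was the lowest of its group for 48 of the 78 members, and wild-type replicate 3 the lowest of its group for 41.

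**Figure D2:**
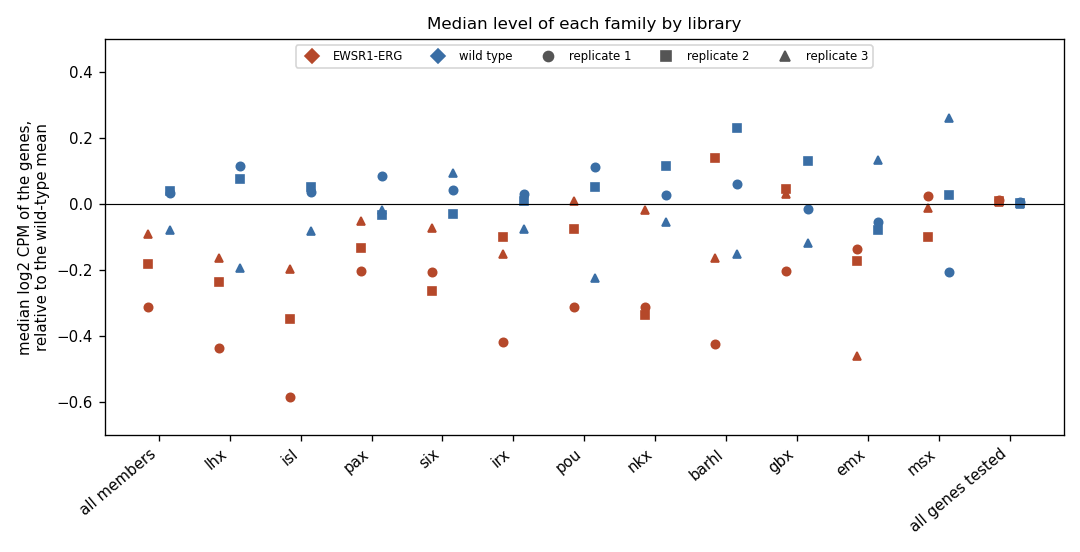
Median log2 CPM of the tested genes of each family in each library, relative to the mean of the wild-type pools; EWSR1-ERG points stand left of wild-type points and marker shapes give the replicate. Over all members the EWSR1-ERG medians were -0.31, -0.18 and -0.09 and the wild-type medians 0.04, 0.04 and -0.08, so between the groups the third replicates lay closest together.

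The genes of the eye and forebrain held 3 of the calls. Of 19 such members 16 were tested, 3 were lower, 0 were higher, and 15 had a negative log2 fold change, with a median of -0.37. The value was negative in 73.1% of all tested members and in 49.4% of all tested genes. Over all tested genes 9.87% were lower and 7.46% higher, and these shares also stand beside the counts of the groups and lists below. These role groups were drawn up from textbook roles after values had been seen, so the counts describe them only.

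six7, a fish sine oculis gene of the eye field that is needed for green- and blue-sensitive cones, had 16.8, 16.1 and 16.1 CPM in EWSR1-ERG pools against 24.7, 24.4 and 28.7 CPM in wild-type pools. The groups did not overlap, and the EWSR1-ERG pools were nearly equal. It averaged 16.4 ± 0.423 CPM and 25.9 ± 2.39 CPM (SD, n = 3 each), a log2 fold change of -0.66 (SE 0.133, adjusted p = 0.00343), or 1.58-fold lower in EWSR1-ERG embryos.

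six3a, which acts in the anterior forebrain, lens and eye field, had 11.0, 15.0 and 17.2 CPM in EWSR1-ERG pools and 30.5, 28.5 and 20.3 CPM in wild-type pools. All EWSR1-ERG pools were below all wild-type pools, with the replicates 3 of both groups nearest to each other. The log2 fold change was -0.86 (SE 0.186, adjusted p = 0.00597), 1.81-fold lower, the largest fall among the called members. Its duplicate six3b had 25.6, 22.6 and 26.1 CPM against 34.7, 30.4 and 26.0 CPM, with a log2 fold change of -0.29 and an adjusted p of 0.157, and was not called.

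six6b, a retinal, hypothalamic and pituitary gene, had 11.6, 12.2 and 16.8 CPM in EWSR1-ERG pools and 23.2, 22.6 and 20.1 CPM in wild-type pools. The groups did not overlap, although EWSR1-ERG replicate 3 was close to the lowest wild-type pool. It was 1.59-fold lower, with a log2 fold change of -0.67 (SE 0.165, adjusted p = 0.0128). Its duplicate six6a was measured at 2.91, 5.07 and 5.07 CPM against 6.09, 5.61 and 4.97 CPM. Its log2 fold change was -0.34 (adjusted p = 0.431), and its groups overlapped.

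pax6a, the abundant one of the pax6 genes of eye, forebrain and islets, lay just outside the threshold. It had 45.5, 41.6 and 46.8 CPM in EWSR1-ERG pools and 62.8, 61.0 and 48.3 CPM in wild-type pools, which did not overlap, with a log2 fold change of -0.36 (SE 0.121, adjusted p = 0.0536). pax6b and the Pax6-like gene pax6l (now pax10) had log2 fold changes of -0.52 and -0.33 at levels of 1.77 to 3.72 CPM in the 6 libraries, and neither was called.

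The LIM-homeobox genes of this group were not called. lhx8a, a gene of ventral forebrain neurons, had the lowest fold change of all members, with 1.53, 2.62 and 2.46 CPM in EWSR1-ERG pools and 3.89, 3.10 and 6.1 CPM in wild-type pools. These groups did not overlap, but at this level the log2 fold change of -0.94 had an SE of 0.329 and an adjusted p of 0.0649. lhx6, known in the mouse from forebrain interneurons, had 7.96, 9.10 and 9.37 CPM against 11.3, 10.5 and 12.7 CPM (log2 fold change -0.37, adjusted p = 0.173). The eye and forebrain gene lhx2b was at -0.32 and the forebrain gene lhx5 at -0.11, with overlapping groups. lhx9, the most abundant lhx gene, had 31.9, 39.7 and 44.5 CPM in EWSR1-ERG pools and 44.4, 42.4 and 36.8 CPM in wild-type pools (log2 fold change -0.09, adjusted p = 0.730), so no difference beyond the spread between pools was found.

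Among the telencephalic emx genes, emx2 had 24.5, 26.8 and 28.3 CPM in EWSR1-ERG pools and 26.6, 27.9 and 25.1 CPM in wild-type pools. Its log2 fold change of 0.00 (SE 0.122) was bounded well within 2-fold, and the pools of both groups were interleaved. emx3 had 2.45, 2.1 and 1.23 CPM against 2.54, 2.32 and 3.61 CPM (log2 fold change -0.62, SE 0.362, adjusted p = 0.277). nkx2.1b, a gene of the ventral forebrain, had 0.919, 3.67 and 3.23 CPM against 4.74, 4.26 and 2.71 CPM, with EWSR1-ERG replicate 1 the lowest of the 6 (log2 fold change -0.57, adjusted p = 0.376). lhx2a, emx1 and nkx2.1a had too few counts to test.

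Markers of the retina moved beside these genes. All 12 photoreceptor markers fell (median log2 fold change -2.73), and their summed level was 917 to 1063 CPM in EWSR1-ERG pools against 7351 to 7766 CPM in wild-type pools. Of 12 inner retina markers 6 fell and 2 rose, and the list summed to 556 to 608 CPM against 989 to 1098 CPM. No marker of either list was listed at 0 in all libraries. Each photoreceptor marker had a log2 fold change of -1.75 or below. The inner retina markers had a median of -0.36 and ran from -2.34 in gnb3b to 0.52 in prdm1a. The part of retinal cell content in the results for six3a, six6b and six7 was not tested.

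**Figure D3:**
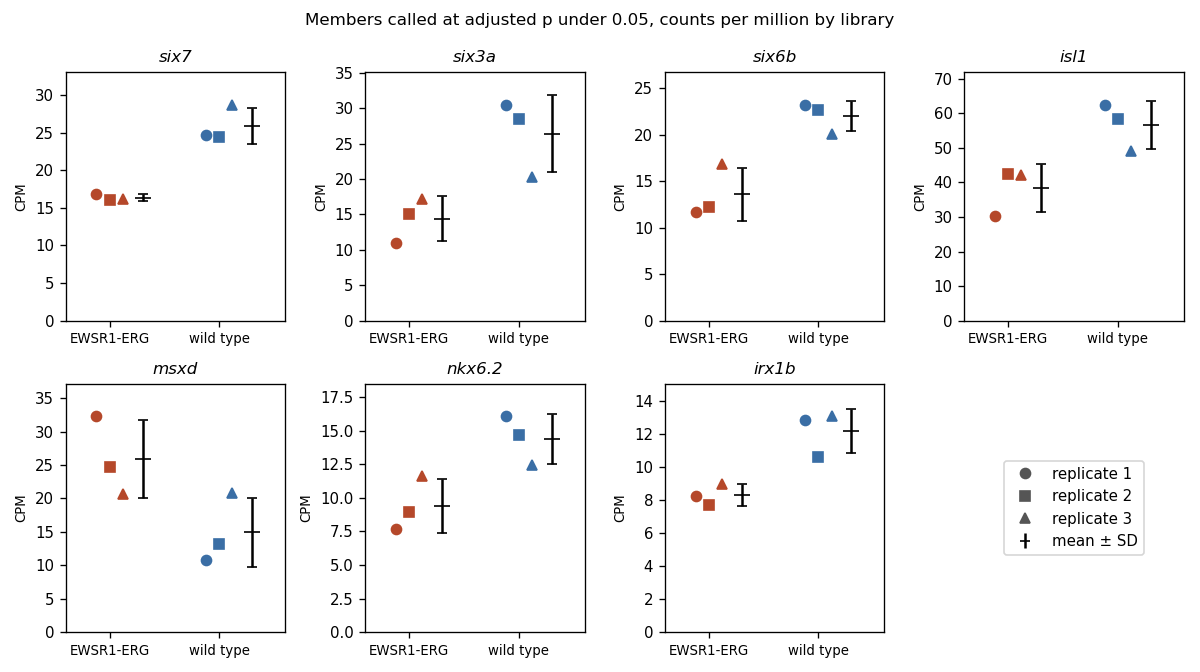
CPM of the 7 called members in each library, with EWSR1-ERG pools left and wild-type pools right; marker shapes give the replicate and the bar beside them the mean ± SD, n = 3 each. In 6 genes all EWSR1-ERG points lie below all wild-type points, and in msxd the replicates 3 of both groups (20.7 and 20.8 CPM) meet.

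Genes of neuron identity gave 1 call in 14 tested, and 10 of the 14 had a negative log2 fold change (median -0.33), beside 73.1% negative among all tested members. The Islet genes mark motor neurons, sensory neurons and retinal ganglion cells, and isl1 (now isl1a) also marks heart progenitors and endocrine cells. isl1 had 30.3, 42.5 and 42.2 CPM in EWSR1-ERG pools and 62.5, 58.5 and 49.0 CPM in wild-type pools. The groups did not overlap, and isl1 was 1.48-fold lower in EWSR1-ERG embryos, with a log2 fold change of -0.56 (SE 0.142, adjusted p = 0.0143). isl2a had 16.8, 18.2 and 20.3 CPM against 23.9, 23.6 and 22.4 CPM, and isl2b had 10.1, 12.9 and 13.4 CPM against 15.1, 16.5 and 14.5 CPM. Both Islet2 genes had a log2 fold change of -0.33 and non-overlapping groups, but adjusted p-values of 0.113 and 0.200, so neither was called.

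The neuron markers also lay lower. Of 11 tested markers of differentiated neurons 4 fell and 0 rose (median log2 fold change -0.45), among them snap25b at -0.78 (adjusted p = 0.000754), and the list summed to 1099 to 1462 CPM in EWSR1-ERG pools against 1517 to 1991 CPM in wild-type pools. Within each group the pool with the lowest neuron sum was also the one with the lowest isl1, namely EWSR1-ERG replicate 1 and wild-type replicate 3. The same pools were the lowest of their group for 48 and 41 of the 78 tested members, so this was not particular to isl1. Among 11 tested markers of proliferating neural progenitors 1 rose and 1 fell, with sums of 1062 to 1156 CPM against 1036 to 1154 CPM. The heart, where isl1 is also used, had 5 markers lower and 2 higher of 10 tested, with sums of 121 to 145 CPM against 176 to 177 CPM. The part of these tissues in the isl1 result was not tested.

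The other LIM-homeobox genes of neurons were not called. lhx1a, an interneuron and horizontal cell gene, had 21.0, 29.0 and 33.2 CPM in EWSR1-ERG pools and 41.3, 37.9 and 27.8 CPM in wild-type pools, with a log2 fold change of -0.36 and an adjusted p of 0.209. Its duplicate lhx1b, at 1.36 to 3.84 CPM in the 6 libraries, had a log2 fold change of 0.72 with an SE of 0.398, the widest of all tested members. lhx4, known from motor neurons and the pituitary, was at -0.37 with overlapping groups.

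The Brn3-type genes did not share a sign. pou4f3, a factor of inner ear and lateral line hair cells, had 2.14, 3.85 and 3.23 CPM in EWSR1-ERG pools and 4.57, 6.19 and 4.07 CPM in wild-type pools. The groups did not overlap, and the log2 fold change of -0.69 had an adjusted p of 0.121. pou4f1, of sensory neurons and habenula, was at -0.26 and pou4f2, of retinal ganglion cells, at 0.19, both with overlapping groups. pou6f1, of the brain, was at 0.15 and was not called.

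In the BarH-like family barhl2, which acts in retinal amacrine and ganglion cells and in the diencephalon, had 17.3, 20.3 and 23.5 CPM in EWSR1-ERG pools and 31.8, 33.5 and 21.7 CPM in wild-type pools. Wild-type replicate 3 lay below EWSR1-ERG replicate 3, and the log2 fold change of -0.50 (SE 0.170) had an adjusted p of 0.0573. barhl1a and barhl1b, of hindbrain and diencephalon, were at 0.13 and -0.06.

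The 5 class III POU genes, which are expressed in neural progenitors and neurons, all had negative log2 fold changes close to 0, from -0.24 in pou3f1 to -0.00140 in pou3f3a, and none was called. pou3f3b had the highest level of the pou family, with 44.6, 45.5 and 55.9 CPM in EWSR1-ERG pools and 63.8, 56.1 and 47.7 CPM in wild-type pools (log2 fold change -0.20, adjusted p = 0.358). Its counts were within 2% of those of an unnamed gene model on the same chromosome in each library. The deposited counting may therefore have read both from the same RNA, but their positions were not compared. pou3f1 had 42.1, 44.4 and 48.5 CPM against 59.8, 54.2 and 45.6 CPM (adjusted p = 0.204), with wild-type replicate 3 inside the EWSR1-ERG range.

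In the midbrain, hindbrain and neural tube group 1 of 10 tested genes fell, and the median was -0.06 on the log2 scale. nkx6.2, a ventral neural tube gene, had 7.66, 8.92 and 11.6 CPM in EWSR1-ERG pools and 16.1, 14.7 and 12.4 CPM in wild-type pools. The groups did not overlap, and the log2 fold change was -0.59 (SE 0.190, adjusted p = 0.0468), close to the threshold. nkx6.1, which also acts in the pancreas, had 4.29, 7.00 and 8.91 CPM against 9.14, 9.10 and 8.81 CPM, with a log2 fold change of -0.38 and an adjusted p of 0.336.

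The gbx genes, which act in the anterior hindbrain, had opposite signs. gbx1 had 8.73, 8.92 and 8.91 CPM in EWSR1-ERG pools and 6.94, 7.55 and 5.42 CPM in wild-type pools, and gbx2 had 8.12, 11.4 and 11.1 CPM against 13.4, 15.1 and 14.7 CPM. In neither gene did the groups overlap. The log2 fold changes of 0.41 (adjusted p = 0.187) and -0.48 (adjusted p = 0.0748) did not pass the threshold, and the difference between the genes was not tested.

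The midbrain-hindbrain boundary gene pax2a had 16.5, 18.7 and 24.0 CPM in EWSR1-ERG pools and 22.7, 20.1 and 19.2 CPM in wild-type pools, with a log2 fold change of -0.05 (SE 0.160). pax8, of ear, kidney, thyroid and interneurons, was at 0.11, and the dorsal neural tube, neural crest and muscle progenitor genes pax3a, pax7b and PAX7 (3 of 3) were at 0.18, -0.07 and 0.30. None of these was called, although all 3 EWSR1-ERG pools lay above the wild-type pools in PAX7 (3 of 3), which is listed on chromosome 11 like pax7a and may be a part of the same gene. Neural crest and pigment markers fell in 7 of 11 and rose in 0. Those that fell were the pigment genes mitfa, dct, tyr, tyrp1b, pmela, pnp4a and slc45a2. sox10, tfap2a, ltk and foxd3 of this list were not called, at -0.08, -0.17, -0.21 and -0.45. nkx1.2lb was at -0.09. pax2b, pax5, pax3b, pax7a, nkx2.2b and nkx1.2la had too few counts to test.

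The Iroquois genes pattern the neural plate, retina, heart and kidney, and 1 of 11 fell. irx1b had 8.27, 7.70 and 8.98 CPM in EWSR1-ERG pools and 12.9, 10.6 and 13.1 CPM in wild-type pools. The groups did not overlap, and the log2 fold change of -0.54 (SE 0.176) had an adjusted p of 0.0494, the called member nearest to the threshold. The most abundant genes of the family showed no such difference. irx3a had 56.5, 47.6 and 54.0 CPM against 51.6, 48.2 and 52.2 CPM (log2 fold change 0.06, SE 0.109), and irx5a had 39.5, 43.7 and 47.2 CPM against 41.8, 45.9 and 40.4 CPM (0.03, SE 0.114). irx6a and irx4b were lower in every EWSR1-ERG pool than in every wild-type pool, with log2 fold changes of -0.51 (adjusted p = 0.164) and -0.43 (adjusted p = 0.252). irx4a, irx7, irx2a and irx1a were at -0.51, -0.45, -0.27 and -0.15, and irx3b and irx5b at -0.05 and 0.06, all with overlapping groups. Of 10 tested kidney tubule markers 2 rose and 2 fell.

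Several of these genes lie next to each other or 1 gene apart in the genome, in the gene order of the RefSeq annotation of GRCz12tu, which is used here for order alone. Neighbours did not share their change to the same degree. On chromosome 13 six3a (-0.86) lies beside six2a (-0.34), and on chromosome 20 six6b (-0.67) lies near six4b (-0.04). The duplicated clusters on chromosomes 12 and 13 held six3b (-0.29) with six2b (0.04), and six6a (-0.34) with six4a (-0.19). In each of these 4 clusters the eye gene (six3 or six6) had the lowest log2 fold change. In the irx clusters, irx1b (-0.54) and irx4b (-0.43) lie together on chromosome 19, whereas on chromosome 7 irx6a (-0.51) lies beside irx5a (0.03) and irx3a (0.06). The SE of these values ran from 0.109 to 0.261, and the differences between neighbours were not tested.

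**Figure D4:**
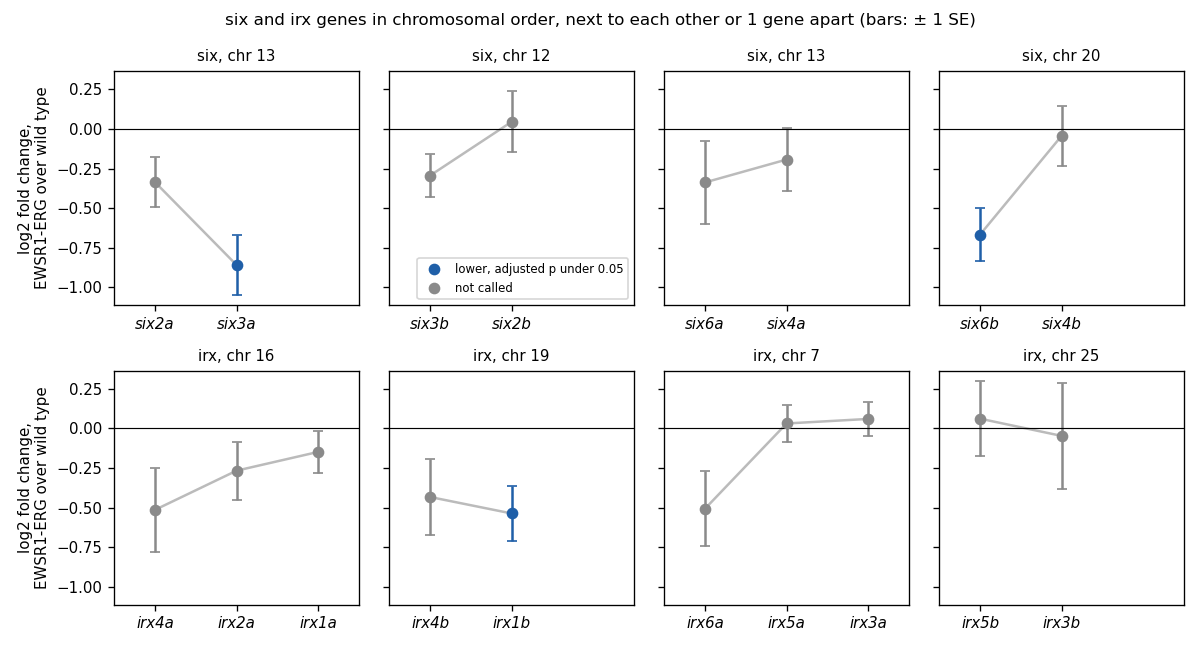
Log2 fold change, EWSR1-ERG over wild type, of sine oculis and Iroquois genes that are neighbours or 1 gene apart, a panel for each chromosomal cluster; bars are ± 1 SE. six3a, six6b and irx1b are the called genes; the six2 and six4 genes near the six3 and six6 genes lie between -0.34 and 0.04.

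Zebrafish keep many genes in duplicate, and 17 a and b pairs had both duplicates tested. The log2 fold changes of the duplicates had the same sign in 11 pairs, of which 10 were both negative, and opposite signs in 6. In 3 pairs 1 duplicate was called (six3a, six6b and irx1b), and in 0 pairs both were. To ask whether duplicates differed in their change, the log2 ratio of a to b was taken in each library. For six3 the ratio was -0.79 ± 0.351 in EWSR1-ERG pools and -0.21 ± 0.129 in wild-type pools (SD, n = 3 each), a change of -0.58. For pax1 it was -0.29 ± 0.188 and -1.01 ± 0.360, a change of 0.72, and for six2 it was 1.23 ± 0.244 and 1.61 ± 0.112, a change of -0.38. In these 3 pairs the ratios did not overlap between the groups. Each reached the smallest two-sided exact permutation p that 3 against 3 libraries allow, 0.1, which became 0.567 after Benjamini-Hochberg adjustment over the 17 pairs. The largest change in size was that of lhx1, -0.83 (exact p = 0.3, adjusted 0.850), and those of irx1 and six6 were 0.37 and 0.33 (exact p = 0.2 each, adjusted 0.680).

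**Figure D5:**
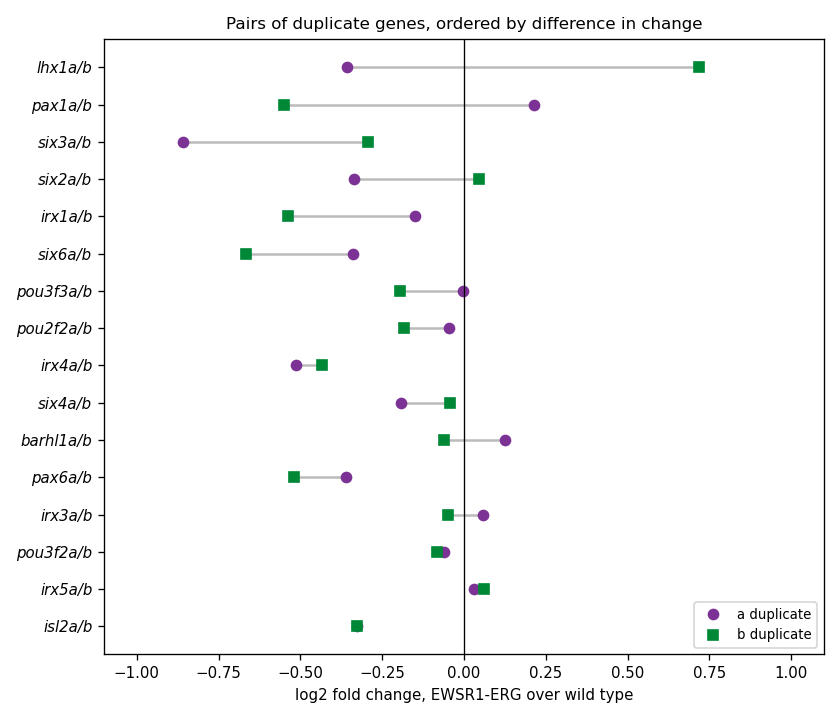
Log2 fold change, EWSR1-ERG over wild type, of the a duplicate (circle) and the b duplicate (square) of the gene pairs reported by name, ordered by their difference with lhx1 and pax1 at the top. The isl2 duplicates coincide at -0.33, and six3a lies at -0.86 against -0.29 for six3b.

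Genes of placodes, muscle and mesenchyme gave 1 call in 17 tested, the only call upward, with a median log2 fold change of -0.04. The Msx genes act in the fin fold, dorsal neural tube and neural crest. msxd (now msx2b) had 32.3, 24.7 and 20.7 CPM in EWSR1-ERG pools and 10.8, 13.2 and 20.8 CPM in wild-type pools. It was 1.74-fold higher in EWSR1-ERG embryos, with a log2 fold change of 0.80 (SE 0.233, adjusted p = 0.0346). The replicates 3 of the groups were, however, at nearly the same level, and the groups overlapped in CPM scaled with the TMM factors. msxb (now msx1b) had 26.8, 21.0 and 22.9 CPM against 14.9, 18.6 and 21.9 CPM, with a log2 fold change of 0.36 and an adjusted p of 0.144. msxc (now msx3), the most abundant of the family, had 29.2, 26.8 and 28.5 CPM against 25.9, 26.1 and 35.0 CPM (log2 fold change -0.03, SE 0.137). msxa and msxe were at -0.20 and -0.30 and were not called.

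The sine oculis genes of placodes and muscle gave no call. six4a and six4b were at -0.19 and -0.04, and six4.3 (now six5) at 0.33, where all EWSR1-ERG pools lay above all wild-type pools (adjusted p = 0.192). The head mesenchyme genes six2a and six2b were at -0.34 and 0.04. Skeletal muscle markers gave 2 higher and 0 lower of 12.

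The sclerotome and pharyngeal pouch genes pax1a, pax1b and pax9, which have a paired box without a homeobox, were not called. pax1b had 3.68, 2.80 and 5.38 CPM in EWSR1-ERG pools and 6.09, 4.84 and 7.46 CPM in wild-type pools (log2 fold change -0.55, adjusted p = 0.204). pax9 was at -0.28 with non-overlapping groups, and pax1a at 0.21. The jaw joint gene nkx3.2 had 13.2, 12.9 and 14.1 CPM against 15.7, 17.8 and 15.8 CPM, which did not overlap, at a log2 fold change of -0.29 (adjusted p = 0.204), and nkx3.3 was at 0.40 (adjusted p = 0.379). Cartilage markers fell in 6 of 11 and rose in 0, with sums of 2149 to 3029 CPM in EWSR1-ERG pools against 3906 to 4047 CPM in wild-type pools. Their part in the values of pax9 and nkx3.2 was not tested.

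Of the heart, gut and other genes 5 of 10 were tested and 0 were called. The pharyngeal and gut gene nkx2.3 had 9.49, 9.97 and 12.8 CPM in EWSR1-ERG pools and 9.14, 8.32 and 9.49 CPM in wild-type pools, at a log2 fold change of 0.29 (adjusted p = 0.339). The octamer-binding genes pou2f1b, pou2f2a, pou2f2b and pou2f3 were at -0.03, -0.05, -0.18 and 0.04. In all, 17 members had between 14 and 66 counts over the 6 libraries and were not tested, and beside those named above they included six9, nkx2.5, nkx2.7, nkx6.3, pax4 and pou5f3. nkx6.3, a gut gene, had 4, 7 and 13 counts in EWSR1-ERG pools and 0, 3 and 1 in wild-type pools, and no statement on its change is made at this depth. Marker lists of organs that use these genes were mixed. Endocrine pancreas had 2 of 10 higher, the hormone genes gcga and sst2 (log2 fold changes 1.23 and 1.14). It had 2 of 10 lower, neurod and scg3 (-0.47 and -0.81). Pituitary had 1 lower of 4, pitx3 (-0.63). Thyroid had 1 lower of 7, thyroglobulin (tg, log2 fold change -2.20, adjusted p = 0.000786).

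Patterning genes outside the 11 families were counted in the same way. In a list of other homeobox genes, not all of them neural, 8 of 78 tested were higher (10.3%) and 15 were lower (19.2%). The median log2 fold change of the list was -0.11. Those higher were tlx1 (1.94), lbx1a (0.93), lbx2 (0.85), prrx1a (0.56), hlx1 (0.55), prrx1b (0.48), hmx4 (0.44) and meis4.1a (0.36). The lowest p-values were those of retinal genes. otx5 and crx, which act in photoreceptors and bipolar cells, had log2 fold changes of -0.80 (adjusted p = 0.000275) and -0.72 (adjusted p = 0.000297), and the eye field gene rx2 of -1.30 (adjusted p = 0.000626). The difference between this list and the 11 families was not tested, and otx5, crx and vsx1 are also among the inner retina markers.

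Cofactors and patterning signals were counted next. Among 29 tested cofactors of LIM and sine oculis proteins, such as the Ldb and Eya families, 0 were higher and 1 was lower, with a median of -0.12. This was lmo7b, at a log2 fold change of -0.72 (adjusted p = 0.0158). It was listed with the other lmo genes, and whether its protein acts as such a cofactor was not tested. No tested Ldb or Eya gene was called. Among 42 tested genes of patterning signals 4 were higher (9.52%) and 3 lower (7.14%), with a median of 0.02. Of all tested genes 7.46% were higher and 9.87% lower. shhb, a Hedgehog ligand, had a log2 fold change of -1.34 (adjusted p = 0.000833). etv5b, a target of Fgf signalling, was at -0.46 (adjusted p = 0.0107), and gli2a, a Hedgehog transcription factor, was higher at 0.50 (adjusted p = 0.0204).

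The calls differed in how much they rested on single settings. six3a and six7 stayed called in all 16 alternative analyses, with log2 fold changes of -1.03 to -0.70 and -0.71 to -0.58. isl1 and six6b stayed called in 14 each and were lost without wild-type replicate 1 and without wild-type replicate 2, with adjusted p-values of at most 0.0823 and 0.0634. msxd was kept in 11 and nkx6.2 in 8, and both were lost without EWSR1-ERG replicate 1 or 2 and without wild-type replicate 1 or 2, with adjusted p-values of at most 0.142 and 0.189. nkx6.2 was also lost under DESeq2, under limma-voom and with scaling by library totals only. irx1b was kept in 2 of the 16, under upper-quartile scaling and without robust estimation, and had an adjusted p of at most 0.173. barhl2 was gained without EWSR1-ERG replicate 3 (log2 fold change -0.64), without wild-type replicate 3 (-0.66) and when genes were not filtered by count, and pax6a without wild-type replicate 3 (-0.46).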

How the data were processed

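RNA-seq libraries of 3 EWSR1-ERG and 3 wild-type pools were analysed. The values are whole-number read counts per gene as the authors deposited them, treated as estimated counts because every file ends with a size factor, which was not applied. Per the submitters' processing notes the tools were SAMtools, Bowtie2 and DESeq with the Zv9 build; no version, counting tool or strand setting is given in the sources used here. Reads of overlapping or antisense genes therefore cannot be told apart.

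From these counts, CPM were taken over the total counts of the tested genes multiplied by the TMM factor. Differences were tested with edgeR 4.0.16 (R 4.3.3): TMM factors, filterByExpr (at least 10 counts), robust quasi-likelihood fit, Benjamini-Hochberg over 17557 genes. Pair ratios used a prior count of 2. limma 3.58.1 and DESeq2 1.42.0 were alternatives. The procedure was checked on simulated counts, with 100 genes changed 1.5-fold and 100 changed 2-fold. It called 40% of the 1.5-fold and 77.8% of the 2-fold changes, with 8 false calls. Changed genes that failed the count filter were left out of these percentages. The changed genes were drawn from those above a minimum expected count, so the check does not cover members with few counts. Far fewer genes were changed there than were called in these data, so recovery here may differ. The 2 rows per file that name no gene stayed out. Symbols follow the files; 92 of 95 members matched RefSeq names. p-values measure the spread between pools; the labels do not say whether pools came from separate clutches.

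Members and lists were chosen with earlier results of these data known. Values in every library are given for called members and, in each family, for the most abundant member and the one with the largest fold change, except where that member is not reported by name; barhl2, pax6a, gbx1 and others are named by role or for lying near the threshold, after their values were seen. In the other homeobox, cofactor and signal lists the genes named with a p are those with the smallest p. All genes called higher in the other homeobox list are named too. Marker lists cover neurons, photoreceptors, inner retina, progenitors, muscle, heart, pancreas, pituitary, thyroid, kidney, neural crest and cartilage. A promoter motif count was not run, since no promoter sequences were used here. Some single genes are not reported here by name, although they are included in the counts.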

Additional observations from a re-analysis of the deposited data

How the results depend on the processing

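Most values kept their direction. Without 1 library at a time, the members called lower ranged from 2 to 7 and those called higher from 0 to 1, with 0 higher without either of EWSR1-ERG replicates 1 and 2 or wild-type replicates 1 and 2, and 2 lower without wild-type replicate 1 or 2. Over all genes the calls then ranged from 646 to 1334 higher and from 981 to 1668 lower, fewest without wild-type replicate 2. Family medians ranged from -0.26 to 0.0746 in pax, -0.32 to -0.0872 in the sine oculis genes, -0.33 to -0.14 in nkx, -0.26 to -0.00516 in pou and -0.40 to -0.18 in lhx, and also from -0.24 to 0.04 in barhl, -0.08 to 0.03 in gbx, -0.11 to 0.12 in msx and -0.40 to -0.17 in emx, so that pax, barhl, gbx and msx did not keep their sign. Tested against a 1.5-fold change, 0 members were higher and 0 lower (1 at an unadjusted p under 0.05), beside 294 genes higher and 484 lower. With the replicate block, 0 members were higher and 4 lower (isl1, six6b, six3a, six7). The labels do not say whether a replicate number pairs the pools. Correlations between the groups, of deviations from the group mean, were -0.12, 0.09 and -0.02 for same-numbered pools. For pools with different numbers they ran from -0.20 to 0.17. With 3 pools per group these values cannot decide whether the pools are paired. Under DESeq2 and limma-voom 4 members were lower and 1 higher each. Members under about 5 CPM have wide intervals, and the causes of lost calls beyond fewer samples were not tested.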
